A study of Mus musculus with 3 samples.

Results

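Chromatin RNA of mouse macrophages held reads on 236 loci of the annotation class TEC, out of 3213 TEC genes in the tables, at the level asked for here. TEC marks loci that still await experimental proof. A locus was taken when all of its transcripts had that class, its mean TPM over the libraries was at least 10 and its expected count was at least 20 in each library. TPM is a read count divided by transcript length and scaled to the same total in each library, so that levels of different genes can be compared. The level rule was passed by 7.35% of TEC genes, beside 9.43% of all 55536 annotated genes, 20.5% of protein-coding genes and 2.02% of lincRNA and antisense genes. Because the rule used the level, levels are given below as a description, with no test. Of the 236 loci, 235 had single-exon transcripts only, and 1 had a transcript with more than 1 exon.

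The cells were macrophages grown from bone marrow of C57BL/6J mice. They had received 100 ng/ml Lipid A, the membrane anchor of bacterial lipopolysaccharide, for 12 h, had then been kept without it for 12 h, and had been stimulated again at the same dose for 60 min. The 3 libraries, replicates 1, 2 and 3, formed 1 group and were made from rRNA-depleted total RNA of the chromatin fraction, from 1000, 250 and 500 ng of RNA. All of them carried both Lipid A doses and none was untreated, so the values are levels and not responses. Sex and age were not collected. The labels give separate biosamples with 1 donor entry, and do not say whether the replicates were separate animals or cultures, so the spread between them may be technical.

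GENCODE annotators assign the TEC class to unspliced clusters of expressed sequence tags that carry signs of a poly(A) tail but have not been shown by experiment to be genes of their own. Many lie inside introns of longer genes. RNA still attached to chromatin is rich in unfinished and unspliced transcripts, in which intron sequence has not yet been removed.

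The ends of 8 loci are printed as examples. They are not a typical sample, since 6 were picked for a motif found in 16.5% of the 236 loci. AATAAA is the canonical poly(A) signal, which in a finished transcript lies shortly before the cleavage site, and it was searched on the annotated strand in the last 50 bases of each transcript. The first 6 lines are loci with the motif, chosen to cover introns on either strand and a locus outside coding genes. The last 2 lines are the loci with the highest levels, which lack it. Capitals mark AATAAA, each line is the last 50 bases 5′ to 3′ in the mm10 build, and the sequences were read from the GENCODE M21 transcripts.
Gm43197 (outside coding genes, chr6:3336772-3336821, − strand): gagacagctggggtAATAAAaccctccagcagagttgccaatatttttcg
Gm47445 (intron of Dse, chr10:34178235-34178284, − strand): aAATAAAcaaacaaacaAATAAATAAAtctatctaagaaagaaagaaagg
Gm36638 (intron of Pik3r1, chr13:101749720-101749769, − strand): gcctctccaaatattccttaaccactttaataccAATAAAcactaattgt
Gm45222 (intron of Picalm, chr7:90150205-90150254, + strand): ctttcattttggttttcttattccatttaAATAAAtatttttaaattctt
Gm44207 (antisense in an intron of Plxna1, chr6:89346514-89346563, + strand): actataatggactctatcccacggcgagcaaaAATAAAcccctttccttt
2210406H18Rik (antisense in an intron of Mettl9, chr7:121062852-121062901, − strand): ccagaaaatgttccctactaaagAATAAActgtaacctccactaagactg
A630081D01Rik (intron of Dock10, chr1:80747222-80747271, − strand): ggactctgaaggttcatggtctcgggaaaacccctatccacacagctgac
Gm38062 (intron of Dock10, chr1:80728809-80728858, − strand): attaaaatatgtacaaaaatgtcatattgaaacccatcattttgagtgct

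In the last 50 bases, AATAAA was present in 39 of the 236 loci (16.5%), beside 660 of the 2977 other TEC genes (22.2%) and 21.8% of all TEC genes. In the first 50 bases it was present in 6 loci (2.54%) and in 116 other TEC genes (3.90%). The share depended on position. Among loci in introns on the strand of the coding gene, 22 of 175 (12.6%) held the motif, beside 14.6% of the other TEC genes placed the same way. Among loci antisense in introns, 7 of 21 (33.3%) held it, beside 31.9% of the others. Outside coding genes 5 of 21 loci (23.8%) held it, beside 27.0%. A match says only that these letters are in the window. The loci had a median transcript length of 2127 bases and a median G+C content of 41.9%, beside 1937 bases and 42.3% for the other TEC genes.

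Replicates 1, 2 and 3 held 12602702, 17222239 and 17042691 counts on genes. At this depth 3 counts, the limit that a count of 0 allows, correspond to 0.238 CPM (counts relative to the summed gene counts) in replicate 1, 0.174 CPM in replicate 2 and 0.176 CPM in replicate 3, for counting error only. The libraries were not copies, since chi-square per gene between pairs was 61.6 to 102. All 10 macrophage markers passed 3 counts in all libraries. The 11 fibroblast and stromal markers summed to 3, 48220 and 116 counts, and none passed 3 counts in all libraries, so replicate 2 stood apart in them. Their part in the values below was not tested. Markers of neutrophils, B cells, T and NK cells and erythroid cells summed to 0 to 70 counts in any library. In bulk RNA, fewer cells of a type and less RNA per cell cannot be told apart. Genes with an effective length of at least 200 bases held 34.9, 53.3 and 47.0% of all TPM, the rest lying in short RNAs, so that the TPM of longer genes is scaled down most in replicate 1. Below, "rescaled" means TPM rescaled over those longer genes, and an order of libraries is said to hold on both scales or the rescaled order is given.

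The 236 loci took 1.57, 1.34 and 1.73% of all gene counts, with a mean of 1.55 ± 0.196% (SD, n = 3), out of 2.00, 1.85 and 2.22% for all TEC genes. Most TEC genes were not seen at this depth. Of 3213, 1851 (57.6%) had at most 3 counts in every library, and 521 passed the count minimum with a mean TPM below 10. The median count of the 236 loci was 364, 543 and 594, and single values ran from 25 to 15097 counts. Their median level was 14.3, 20.5 and 21.9 TPM, with a mean of 18.9 ± 4.02 TPM (SD, n = 3). Of the loci, 124 had a mean of 10 to 20 TPM, 73 of 20 to 50, 26 of 50 to 100 and 13 of at least 100 TPM.

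The threshold did not fall in a gap of the distribution. Just inside it lay Gm42979 in Sfswap and Gm43145 in Bmp2k, each with a mean of 10.1 TPM, and F830112A20Rik in Tmem131, also with 10.1 TPM. Just outside lay Gm43133 in Vps33a with 9.99, Gm38077 in Mrpl3 and Gm48986 in Fbxo34 with 9.96 each, AC132481.1 in Zfand3 with 9.93 and Gm38162, antisense to Kansl1l, with 9.90 TPM.

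The highest levels lay in introns of Dock10. A630081D01Rik (ENSMUSG00000102721.1, chr1:80747222-80749054, − strand) had 149, 189 and 294 TPM in replicates 1, 2 and 3, from 3644, 3923 and 6626 counts. Gm38062 (chr1:80728809-80730664) had 143, 162 and 251 TPM. Both were highest in replicate 3 on both scales, and their means of 210 ± 74.7 and 185 ± 57.6 TPM (SD, n = 3) were close to the 220 ± 39.3 TPM of Dock10 itself.

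Cers6, which encodes a ceramide synthase, and Itpkb, which encodes a kinase of inositol trisphosphate, each held several of the highest loci. In Cers6, Gm37159 had 137, 181 and 204 TPM and Gm38236 had 106, 141 and 172 TPM. In Itpkb, Gm37390 had 128, 153 and 150 TPM, Gm37033 had 92.3, 120 and 127 TPM and Gm36933 had 83.8, 112 and 112 TPM. For all 5 of these loci replicate 1 was the lowest library in TPM and replicate 2 after rescaling, as for Gm37390 with 367, 288 and 320 rescaled TPM.

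Another 2 of the 20 highest loci lay in Mapkapk2 and Nfkb1. Gm37084 (chr1:131086252-131092149, − strand) lay in an intron of Mapkapk2, the kinase MK2 that acts below p38 and stabilises cytokine mRNAs. It had 143, 190 and 188 TPM, from 11914, 14187 and 15097 counts, while Mapkapk2 had 133, 100 and 107 TPM. It was above its coding gene in each library. Gm43430, in an intron of Nfkb1, the gene of the NF-κB subunit p50 and its precursor, had 79.3, 85.5 and 134 TPM. Nfkb1 itself had 287, 266 and 496 TPM, and both were highest in replicate 3 on both scales.

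Antisense to Irak2, a kinase of Toll-like receptor signalling, Gm43963 had 41.2, 41.4 and 37.0 TPM. In an Irak2 intron on the same strand, Gm43912 had 58.7, 61.6 and 42.1 TPM. Antisense to Cdkn1a, the gene of the cell cycle inhibitor p21, AC167363.2 (chr17:29093416-29094461, − strand) had 68.5, 131 and 147 TPM, beside 116, 155 and 172 TPM for Cdkn1a. AC167363.2 was lowest in replicate 1 on both scales, while Cdkn1a was lowest in replicate 1 in TPM and in replicate 2 after rescaling (333, 291 and 366). Gm43963 was lowest in replicate 3 in TPM and in replicate 2 after rescaling (118, 77.6 and 78.7), and Gm43912 was lowest in replicate 3 on both. In an intron of Ptprc, the gene of the leukocyte phosphatase CD45, A130071D04Rik had 63.4, 74.99 and 88.3 TPM.

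**Figure D1:**
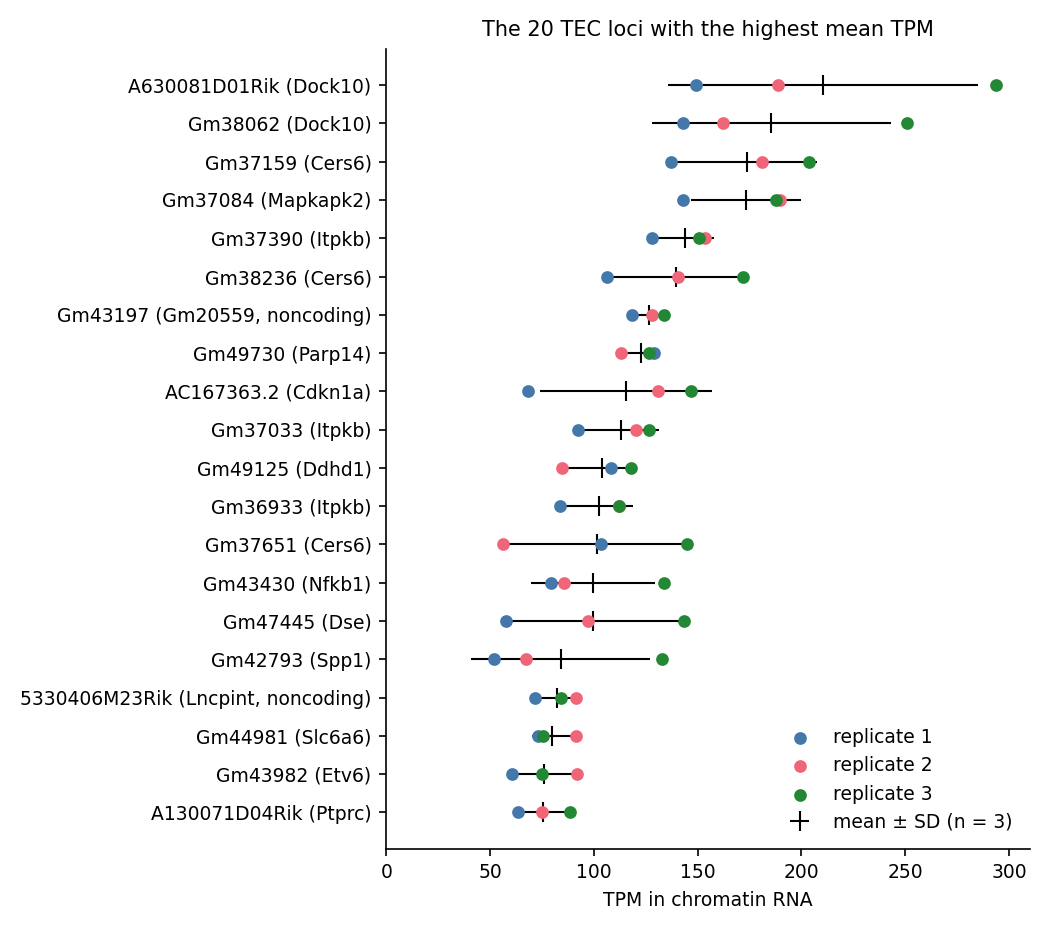
TPM of the 20 TEC loci with the highest mean, 1 row for each locus, with the coding gene that holds it (or the noncoding gene, where it lies outside coding genes) in parentheses. Points are the 3 libraries and the black mark with its bar is the mean ± SD. A630081D01Rik in Dock10 leads at 149 to 294 TPM, and replicate 3 is the highest library in 13 of the 20 rows (11 after rescaling).

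Protein-coding genes held 215 of the 236 loci (91.1%), beside 60.4% of the other TEC genes. The most frequent place was wholly within an intron on the same strand, with 175 loci (74.2%), beside 1311 of 2977 other TEC genes (44.0%). A further 21 lay antisense within an intron (8.90%, beside 7.69%), 14 overlapped exons antisense (5.93%, beside 7.02%) and 5 overlapped exons on the same strand (2.12%, beside 1.58%). Outside coding genes lay 21 loci (8.90%), beside 1179 of the other TEC genes (39.6%). Of the loci within coding genes, 180 were on the same strand (83.7%, beside 75.5%). Reads from unspliced RNA of a coding gene and reads from a separate transcript at an intronic locus cannot be told apart in these tables. The strand setting of the counting is not given, so reads of antisense loci and of their coding genes cannot be told apart either.

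**Figure D2:**
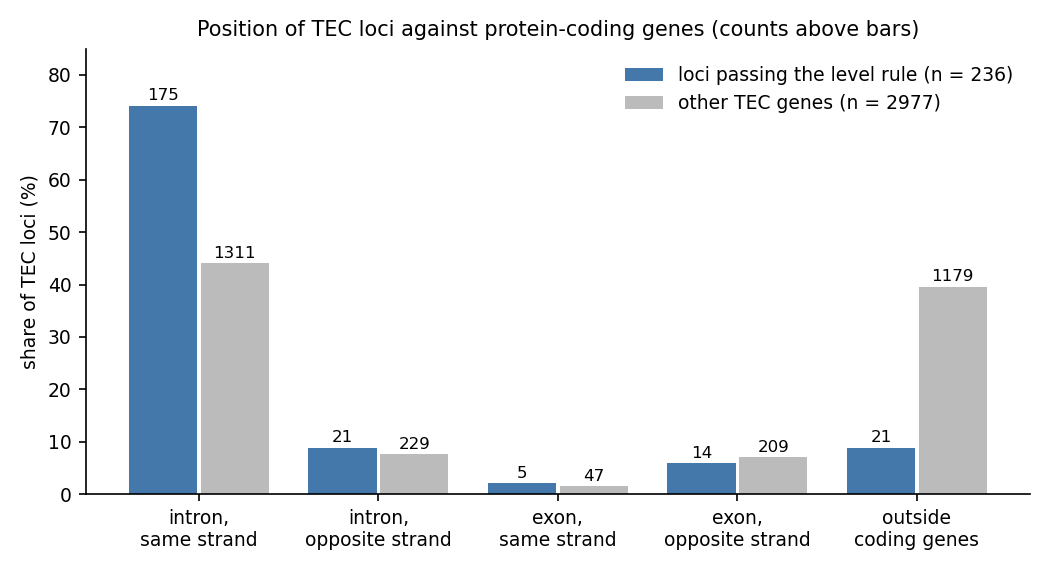
Share of TEC loci, in percent, by their position against protein-coding genes, for the 236 loci passing the level rule (blue) and the 2977 other TEC genes (grey), with the number of loci above each bar. Same-strand introns hold 74.2% of the former and 44.0% of the latter, while 8.90% and 39.6% lie outside coding genes.

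The coding genes that held these loci were themselves well represented in chromatin RNA. There were 154 such genes, with a median of 48.5, 60.5 and 58.6 TPM, while 1056 coding genes that held other TEC loci only had medians of 1.17, 2.93 and 1.26 TPM. On the log2(TPM + 1) scale, which shrinks differences of low genes, the means were 5.94 and 1.95. The difference was 4.05, 3.76 and 4.16 in the 3 libraries, with a mean of 3.99 ± 0.21 (SD, n = 3). An exact two-sided sign-flip permutation test over the 3 libraries gave p = 0.25, the smallest p that 3 libraries allow, so that it could not have passed 0.05. The 154 genes were picked through the level of loci within them, whose reads cannot be told apart from unspliced RNA of the gene, so the contrast is not independent of the level rule and is given as a description. A mean of at least 10 TPM was reached by 151 of the 154 genes (98.1%) and by 263 of the 1056 (24.9%). The 3 exceptions were Rps6ka5 with 7.53 TPM, Mettl9 with 8.24 TPM and Maml2 with 3.43 TPM. With coding genes below 1 TPM left out of both sets, the difference was 2.64 ± 0.31.

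**Figure D3:**
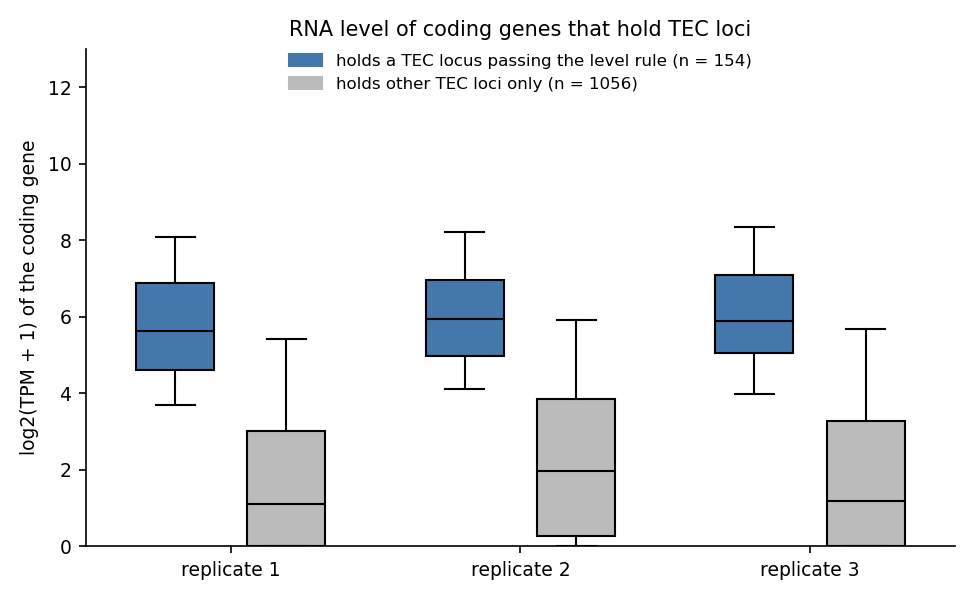
Level of coding genes, as log2(TPM + 1), in each of the 3 libraries, for 154 genes holding a locus that passed the level rule (blue) and 1056 genes holding other TEC loci only (grey). Boxes span the quartiles with the median as a line, and whiskers run from the 5th to the 95th percentile. In all 3 libraries the blue boxes lie above the grey ones.

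Across TEC loci, higher levels went with higher levels of the coding gene. Over all 1486 TEC genes in same-strand introns, Spearman's rho between the mean TPM of the locus and of its coding gene was 0.86, and over the 508 of them with at least 20 counts in each library it was 0.62. Antisense loci gave values of similar size. Without the strand setting their reads cannot be told apart from those of the coding gene, so they do not show whether the relation holds on both strands. For antisense loci in introns, rho was 0.84 over all 250 and 0.66 over the 64 with that count minimum. For loci overlapping exons antisense, rho was 0.80 over all 223 and 0.54 over the 54 with that minimum. Each pair of values comes from the same libraries, and loci in 1 gene share that gene's level. The 1486 loci had a median of only 0.21 TPM, and the count minimum selects loci by their own counts.

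Most loci had a lower TPM than the gene that held them. The TPM of a coding gene is taken over its annotated transcripts and that of an intronic locus over intron sequence. The ratio therefore sets unlike stretches of a gene against each other. The median log2 ratio of locus to coding gene, each plus 0.1 TPM, was −1.70, −1.32 and −1.35, with a mean of −1.46 ± 0.21 (SD, n = 3). Of 215 loci, 184 were below their coding gene in every library, 16 were above it in every library and 15 crossed. By place, the median ratio was −1.44 ± 0.20 for same-strand introns and −1.72 ± 0.52 for antisense loci in introns.

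The loci highest against their coding gene lay in genes with less RNA than the median of the 154 coding genes. The rule favours this, since it keeps only loci with a mean of at least 10 TPM. Mettl9 and Maml2 had means of 8.24 and 3.43 TPM, so the mean of any such locus in them is higher by construction. 2210406H18Rik, antisense in an intron of Mettl9, the gene of a histidine methyltransferase, had 44.7, 47.5 and 54.4 TPM, while Mettl9 had 8.28, 12.3 and 4.17 TPM. Its log2 ratio was 2.68 ± 0.89. In Maml2, which encodes a Notch coactivator and had 3.72, 3.45 and 3.13 TPM, Gm47087 had 18.1, 17.8 and 32.8 TPM and Phxr4 had 13.5, 13.3 and 19.6 TPM. Their log2 ratios were 2.64 ± 0.61 and 2.12 ± 0.43. In Etv6, the gene of an ETS-family repressor, with 14.6, 17.99 and 16.8 TPM, Gm43982 had 60.4, 91.9 and 75.3 TPM. Gm43984 in the same gene had 37.6, 70.4 and 55.9 TPM, and the ratios were 2.18 ± 0.16 and 1.68 ± 0.31. For each of these 5 loci the values in the 3 libraries all lay above those of the coding gene.

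At the other end, Gm10252, which overlaps Ftl1 antisense, had 16.01, 12.3 and 5.41 TPM, while Ftl1, the gene of the ferritin light chain, had 251, 673 and 205 TPM. The log2 ratio was −4.98 ± 0.92. Gm43362 lay 0.230 kb from the start of Srsf11, the gene of a splicing factor, and had a ratio of −4.73 ± 0.29. The ratio was −4.65 ± 0.31 for Gm38262 in Srgap2, −4.14 ± 0.73 for Gm37589 in Mbnl1 and −4.04 ± 0.53 for Gm44443, antisense in Dennd1a.

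**Figure D4:**
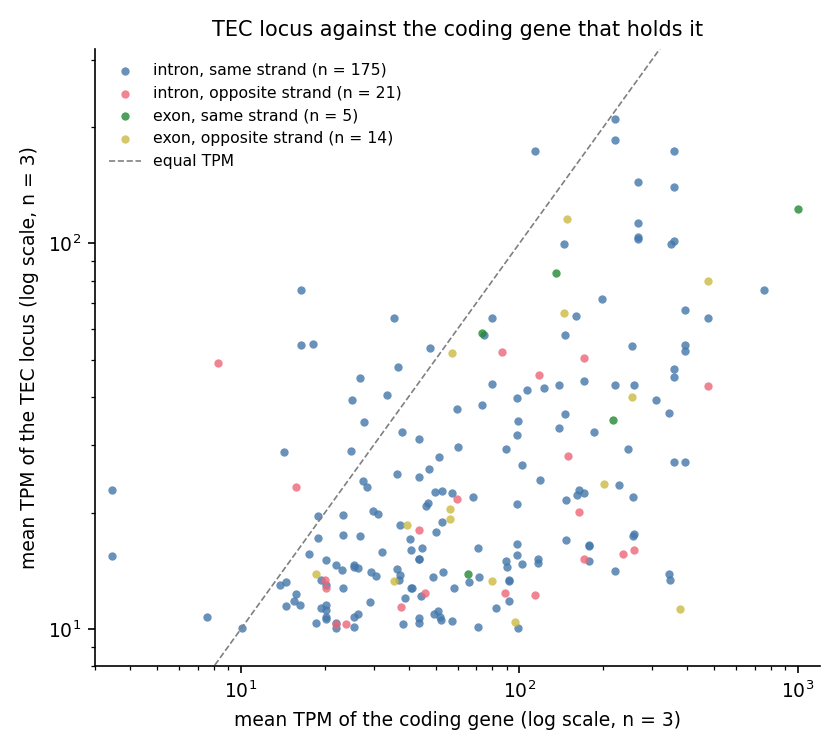
Mean TPM of each of 215 TEC loci against the mean TPM of the coding gene that holds it, over 3 libraries, both on log scales, coloured by position and strand. The dashed line marks equal TPM, and most points lie below it. The floor at 10 TPM is set by the rule.

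In 38 of the 154 coding genes 2 or more of the loci were found, 99 loci in all. For other TEC genes it was 311 of 1087 coding genes, with 1022 loci, so sharing a gene was not particular to these loci. Cers6 and Med13l, the gene of a Mediator subunit, held 6 each. Picalm, which encodes a clathrin assembly protein, Camk2d, which encodes a calcium-dependent kinase, Kansl1l and 2010111I01Rik held 4 each. In Slc6a6, the taurine transporter gene, 3 loci had 3 different places. Gm45828, in a same-strand intron, had 59.9, 76.8 and 55.9 TPM. Gm44981, antisense over an exon, had 73.1, 91.2 and 75.6 TPM. 4930517G19Rik, antisense in an intron, had 48.3, 45.6 and 34.2 TPM and was the lowest of the 3 in every library.

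The 6 loci of Cers6 followed an order along the gene. From the start, at 29.9, 44.6, 101, 128, 152 and 157 kb, Gm37159, Gm38236, Gm37651, Gm37747, Gm37666 and Gm38377 each had a lower TPM than the one before, in every library. In replicate 1 the levels ran from 137 TPM at Gm37159 to 21.2 TPM at Gm38377, in replicate 2 from 181 to 12.5 TPM and in replicate 3 from 204 to 47.5 TPM. The log2 ratio of first to last was 2.69, 3.86 and 2.10. Gm37666 and Gm37747 differed most between libraries, with 35.3, 15.8 and 84.2 TPM and 38.7, 17.8 and 85.5 TPM. Both were lowest in replicate 2 on both scales.

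In Dock10, the remaining locus, Gm37645, lay 89.0 kb from the start and had 35.8, 28.4 and 64.6 TPM, and the log2 ratio of the first locus to it was 2.06, 2.73 and 2.18. In Med13l, 5 same-strand loci spread over 105 kb had a ratio of first to last of 1.38, 1.85 and 1.49. In Camk2d the ratio over 57.7 kb was 0.84, 1.37 and 1.43, and in Picalm over 68.8 kb it was 1.00, 1.11 and 0.94. Picalm did not decline step by step, since Gm45221, 55.7 kb from the start, had 31.8, 74.9 and 95.2 TPM and was its highest in each library.

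Other genes had the opposite order. In Mef2a, the gene of a transcription factor, Gm44668 at 1.88 kb had 8.24, 15.6 and 20.4 TPM and Gm44667 at 101 kb had 16.5, 24.95 and 38.5 TPM. In Dst, which encodes a cytoskeletal linker, Gm37354 had 8.78, 8.99 and 27.2 TPM and Gm38157, 110 kb further on, had 28.5, 31.5 and 28.2 TPM. Over the 31 coding genes with at least 2 of the loci in same-strand introns, the first was higher than the last in every library in 15, lower in every library in 7 and mixed in 9. With at least 3 such loci the counts were 8, 1 and 1 of 10 genes. Over all TEC genes with at least 20 counts in each library, a set added after the data had been seen, they were 40, 29 and 20 of 89 genes, and 14, 12 and 5 of the 31 genes with at least 3 loci.

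**Figure D5:**
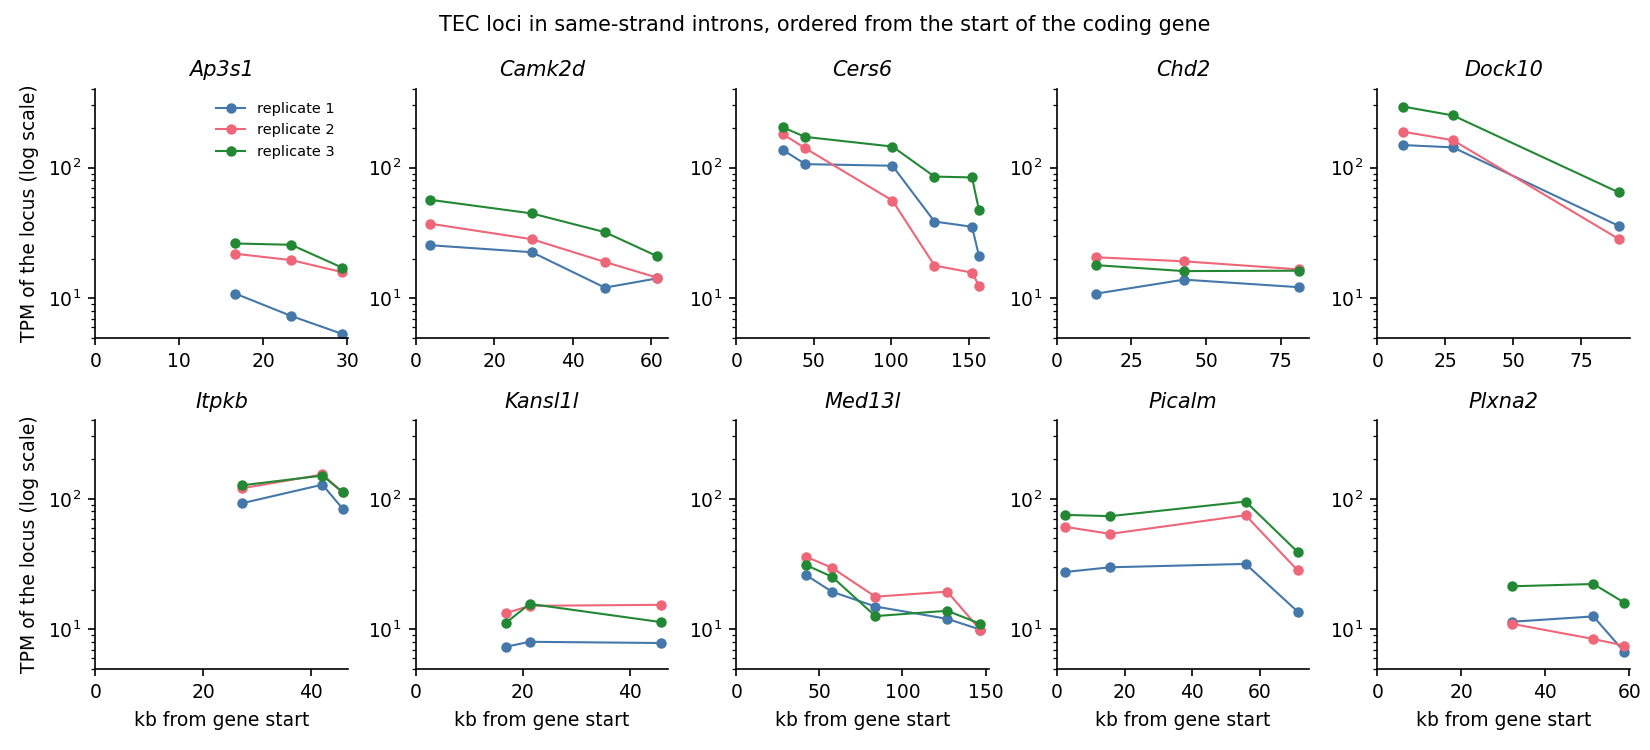
TPM (log scale) of same-strand intronic TEC loci against their distance in kb from the start of the coding gene, for the 10 coding genes with at least 3 of them, 1 line for each library. Levels step down along Cers6 in all 3 libraries and are lower at the far locus of Dock10, while Chd2 and Kansl1l are nearly level.

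The loci lay nearer the start of the coding gene than other TEC genes did. In same-strand introns their median position was 29.6% of the way along the gene, beside 42.2% for the others. The genes were shorter, with a median of 98.3 kb beside 220 kb. The sets also differed in level, with a median of 19.0 TPM for the loci and 0.05 TPM for the others. The medians of their coding genes were 52.6 and 1.19 TPM. The part of level and gene length in the difference in position was not tested. Spearman's rho between the log2 ratio to the coding gene and the distance from its start was −0.42 over the 508 TEC genes with at least 20 counts in each library, and 0.03 over all 1486. Many of the 1486 have few or no counts. The count minimum selects loci by their own counts, which also enter the ratio, so the −0.42 is not independent of that filter. For antisense loci in introns, rho was −0.35 over the 64 with that minimum and 0.02 over all 250. For loci overlapping exons antisense, it was −0.10 over 54 and 0.17 over 223.

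Among the 21 loci outside coding genes, 13 lay on a noncoding gene, 10 of them on its strand. Mir99ahg, the host gene of a microRNA cluster, held 5, and Dleu2, the host of the miR-15a and miR-16-1 hairpins, held 2. Gm43197 lay on Gm20559, 32.9 kb downstream of Samd9l, an interferon-induced gene. It had 118, 128 and 134 TPM, beside 346, 511 and 571 TPM for Gm20559. 5330406M23Rik lay on Lncpint, a long noncoding RNA induced by p53, and had 71.5, 91.3 and 84.3 TPM, beside 323, 328 and 289 TPM. In Dleu2, which had 74.6, 142 and 118 TPM, Gm37472 had 29.0, 43.4 and 31.0 TPM and Gm37420 had 26.9, 42.7 and 28.7 TPM. All 4 of these loci were below the noncoding gene in each library. Of the 21, 10 lay within 10 kb of a coding gene, 7 of them downstream of it on the same strand, such as Gm42548, 2.91 kb past the end of Zfp800, with 14.9, 24.5 and 27.4 TPM. Among the 1179 other TEC genes outside coding genes, the same counts were 386 and 129.

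The 5 loci on exons of the same strand included some with high values. Gm49730 (chr16:35866179-35867951, − strand) overlapped exons of Parp14, an ADP-ribosyltransferase gene induced by interferon, and had 129, 113 and 126 TPM beside 1004, 969 and 1044 TPM for Parp14. Gm42793 overlapped Spp1, the gene of osteopontin, and had 51.8, 67.5 and 133 TPM beside 121, 129 and 155 TPM. Gm43323 overlapped Rbm47, the gene of an RNA-binding protein, and had 48.5, 60.0 and 67.7 TPM. Reads of such loci can be assigned to either gene, so these values are uncertain. Of the 175 same-strand intronic loci, 3 overlapped an exon of another transcript model of the coding gene.

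Replicate 3 was most often the highest library for these loci. On the TPM scale 132 of 236 loci (55.9%) were highest in replicate 3, beside 24.7% of all genes passing the same thresholds and 44.2% of the coding genes that hold the loci. After rescaling over genes of at least 200 bases of effective length, 139 loci (58.9%) were highest in replicate 3, beside 22.7% and 35.1%. The lowest library depended on the scale: replicate 1 for 186 loci on the TPM scale, and replicate 2 for 107 and replicate 1 for 82 after rescaling. The median coefficient of variation over the libraries was 30.9%, beside 26.3% for all genes passing the thresholds. After rescaling it was 24.5%, beside 21.1%. The loci were also lower in level, with a mean of the library medians of 18.9 TPM beside 26.7 TPM. With 3 libraries in 1 group the difference in variation was not tested.

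By the ratio of highest to lowest library in TPM, the 8 widest spreads belonged to the 2 Cers6 loci above and to 6 loci with means below 20 TPM. Gm47615, in an intron of the ubiquitin ligase gene Herc4, had 3.17, 17.1 and 15.2 TPM from 29, 116 and 115 counts, a ratio of 5.39, or 3.57 after rescaling. Gm43216, antisense in Ptpn12, the gene of a tyrosine phosphatase, had 3.43, 12.6 and 18.3 TPM. Gm37082, in an intron of the ETS factor gene Fli1, had 4.30, 20.8 and 7.11 TPM. On both scales it was highest in replicate 2, the library with the fibroblast marker counts, whose part was not tested. Fli1, with 19.2, 30.2 and 11.3 TPM, was also highest in replicate 2 on both scales, but only narrowly above replicate 1 after rescaling. Gm48585, in an intron of Rps6ka5, the gene of the kinase MSK1, had 5.22, 5.79 and 21.1 TPM, highest in replicate 3 on both scales, as was Rps6ka5 with 5.22, 5.57 and 11.8 TPM. Gm36989 in Matr3 and Gm37052 in Rc3h1, the gene of the RNA-binding protein roquin-1, had ratios of 4.29 and 3.96 and were lowest in replicate 1 on both scales. By the coefficient of variation, Gm38357 in an intron of Noct, chosen after its values were seen, was also among the widest at 81.7%, with 22.6, 20.1 and 78.5 TPM.

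The second quantification, from reads without the transcriptome alignment, gave values within 2-fold for 228 of the 236 loci, with Spearman's rho of 0.89 and a median log2 difference of −0.20. The other 8 differed more. Gm37689, a short locus in Sdcbp, had a mean of 43.0 TPM in the gene tables, from 54, 45 and 28 counts, and 149 TPM in the second quantification. Gm37123 in Pik3ca had 24.2 and 81.0 TPM, Gm43633 in Parp11 10.1 and 46.8 TPM, Gm37082 10.7 and 34.9 TPM, and Gm43814, which lies 1.29 kb downstream of Ccrl2, 10.2 and 30.7 TPM.

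A few loci cannot be read separately. Gm20236 in Slc25a37, the gene of the iron carrier mitoferrin-1, and Gm37094 in Gm16867 on the same chromosome have the same transcript sequence of 4540 bases. Each was given 49.4, 45.5 and 97.3 TPM. Gm31748 and Gm37847, antisense at the starts of the same 2 genes, share a sequence of 1497 bases and had 8.90, 11.4 and 19.6 TPM each. The split of reads within each pair is uncertain. The symbol Gm36638 belongs to 2 loci in an intron of Pik3r1, the gene of a regulatory subunit of PI3-kinase. The longer one, whose end is printed above, had 41.9, 49.4 and 82.8 TPM, and the shorter one, nearer the start of Pik3r1, had 30.4, 25.7 and 52.6 TPM.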

How the data were processed

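Expected counts per gene were deposited by the authors in the RSEM layout, from alignment to the mm10 transcriptome of GENCODE M21, per the labels and file headers. TPM values, maximum-likelihood and posterior mean, were deposited by the authors beside them. Estimated counts and TPM per transcript were deposited by the authors in the kallisto layout. For the aligner, tool versions and strand setting, the value is "not given in the sources used here". Rows that name no gene held 1.94, 0.269 and 0.386% of counts and were left out.

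Classes came from the transcript tables and positions from the M21 annotation. All 236 loci matched a transcript sequence. A locus was intronic when it lay wholly within a coding gene and touched no exon of its protein-coding transcripts, and 8 loci on more than 1 coding gene were assigned to 1. Ratios used a pseudocount of 0.1 TPM and the contrast of coding genes a pseudocount of 1. The contrast used an exact sign-flip test over 3 libraries, and the calculations were tested on simulated data. Python 3.11.15, numpy 2.4.6, pandas 2.3.3, scipy 1.17.1 and matplotlib 3.10.9 were used.

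Named loci were the 20 highest and 3 lowest, the 5 just under the threshold, the 8 with the largest ratio between libraries, the 5 highest and 5 lowest against their coding gene, those sharing a coding gene, the 5 highest outside coding genes and the 5 on which the quantifications differ most. The loci and lists were chosen with earlier results of these data known. Bases after the locus ends were not analysed here.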

Additional observations from a re-analysis of the deposited data

How the results depend on the processing

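The number of loci depended on the values and thresholds. It was 236 as reported, 400 by the kallisto-layout values (211 of them shared), 400 at a mean TPM minimum of 5, 112 at a minimum of 20 and 430 with TPM rescaled over genes of at least 200 bases of effective length. Posterior means gave 215 loci and count minimums of 10 and 50 gave 236 and 226. Without replicate 1, 2 or 3 the number was 216 to 274. The rescaled median level was 42.0 TPM, and without 1 library it was 17.4 to 21.2 TPM. Same-strand introns held 172 to 180 loci under other definitions of an intron, 240 (60.0%) of the loci by kallisto-layout values and 160 to 202 without 1 library. The difference between coding genes was 2.64 to 5.28 over all settings, positive in each. It is not independent of the level rule under any setting, so its sign does not bear on stability. The median log2 ratio to the coding gene was −1.93 by kallisto-layout values, against −1.46, and −1.53 to −1.33 without 1 library. None of these results changed direction under the settings run. Of 126 named loci, chosen for recomputing after the data were seen, the mean TPM moved by more than 1 SD for 29 by kallisto-layout values and 5 by posterior means. Rescaling raises every mean by construction, and leaving out 1 of 3 libraries cannot move a mean by 1 SD, so neither bears on stability. The causes were not tested. No paired analysis was possible because all libraries belong to 1 group. Precision is limited by 3 libraries and, near the threshold, by counts as low as 25.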

Other observations

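The 3 TEC genes with a mean of at least 10 TPM that failed the count minimum were very short. Gm38109 in Ppp1r21 had 6.93, 22.7 and 23.5 TPM from 4, 3 and 4 counts over 181 bases. Gm47089 in Maml2, which also holds Gm47087 and Phxr4, had 10.1, 23.8 and 18.4 TPM from 4, 2 and 2 counts over 166 bases. Gm37055, antisense in Rcor3, had 42.0 TPM from 1 count in replicate 3 and no count in the others, over 133 bases.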
